A study of Mus musculus with 2 samples.

Results

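Deep intronic MAFK peaks are binding regions whose summit, the base of highest signal, lies inside a gene but far from the promoters of protein-coding genes. They were taken from the optimal list of the authors, which was derived from both replicates and holds regions that passed their reproducibility filter. A summit had to be in a gene body but in no exon, more than 1 kb from every transcription start site (TSS), more than 20 kb from the nearest TSS of a protein-coding gene, and outside repeat-masked sequence. Of 16865 regions in the list, 16836 lay on chromosomes 1 to 19 and X, and 2614 of these (15.5%) met the rule. The rule used position and the repeat mask at the summit base. Signal and replicate support were free to vary, and so was the sequence around an unmasked summit base. Binding was mapped by chromatin immunoprecipitation with sequencing (ChIP-seq) with an antibody to MAFK in ES-E14, a mouse embryonic stem cell line of strain 129/Ola that the labels call male. The 2 biological replicates form 1 group without treatment, and they share 1 source of cells per the labels, so differences between them may be partly technical. The read depth is unknown, since the files hold regions and not reads, and the control experiment was not analysed here.

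MAFK is a small MAF protein of the basic leucine zipper family that has no transactivation domain of its own. It binds DNA as a homodimer or as the partner of a CNC protein such as NRF2, NFE2 or BACH1, so the same site can be activated or repressed according to the partner. A MAF homodimer prefers a long palindrome, the T-MARE, and a CNC partner prefers an AP-1-like arm next to a MAF arm, the composite or antioxidant response element. Such sites are known from enhancers of erythroid and stress-response genes, and enhancers often lie in introns.

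The sequences at the summits carry what the results below turn on, so those of the 6 strongest deep intronic peaks are shown first. Both strands were searched for elements up to 50 bp to either side of each summit. The MAF core was TGCTGA. The ARE core was TGAC or TGAG, then 3 letters of any kind, then GC, the AP-1 element was TGACTCA or TGAGTCA, and the composite element was TGACTCAGCA or TGAGTCAGCA. Every composite element holds an AP-1 element, an ARE core and a MAF core, so shares of these overlap. The T-MARE is a palindrome that reads as a composite element on either strand, and it was allowed 2 mismatches. All sequences are the plus strand of mm10 (GRCm38), 5′ to 3′, from the RefSeq copy of the assembly. Capitals mark composite elements in the first 5 and the T-MARE in Pknox2. They are from chr1:38549409-38549509 (Aff3), chr10:61930058-61930158 (Col13a1), chr16:36516507-36516607 (Casr), chr16:9132271-9132371 (Gm49448), chr6:5430125-5430225 (Asb4) and chr9:36933872-36933972 (Pknox2).
Aff3: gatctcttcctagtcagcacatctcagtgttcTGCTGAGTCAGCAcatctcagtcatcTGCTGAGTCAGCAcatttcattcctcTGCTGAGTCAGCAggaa
Col13a1: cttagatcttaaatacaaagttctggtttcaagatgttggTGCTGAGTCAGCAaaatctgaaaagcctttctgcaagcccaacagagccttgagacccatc
Casr: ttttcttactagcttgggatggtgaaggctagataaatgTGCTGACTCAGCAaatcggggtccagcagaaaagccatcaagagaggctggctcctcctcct
Gm49448: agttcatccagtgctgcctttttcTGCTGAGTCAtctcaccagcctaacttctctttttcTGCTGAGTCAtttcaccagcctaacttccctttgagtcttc
Asb4: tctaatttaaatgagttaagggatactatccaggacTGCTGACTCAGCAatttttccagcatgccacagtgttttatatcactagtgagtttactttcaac
Pknox2: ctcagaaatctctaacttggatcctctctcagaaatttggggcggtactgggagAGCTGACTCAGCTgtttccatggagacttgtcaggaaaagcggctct

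The strongest deep intronic peak lay in intron 2 of Aff3, which encodes a nuclear protein of the AF4/FMR2 family of transcription elongation factors. The signal value of a region is the authors' own score, deposited with no stated scale. It was 470.3 for this peak in the optimal list, with 254.4 for replicate 1 and 214.8 for replicate 2 in their relaxed lists. The summit was 77726 bp from the nearest protein-coding TSS. Its sequence holds 3 separate exact T-MAREs in a row. The peaks in Col13a1 (a transmembrane collagen), Casr (the calcium-sensing receptor) and Asb4 (a substrate adaptor of a ubiquitin ligase) each hold a single exact T-MARE. Col13a1 had 256.8 in replicate 1 and 182.6 in replicate 2, Casr had 209.9 and 206.3, and Asb4 had 195.2 and 197.8. The peak in the non-coding gene Gm49448 had 207.4 and 197.0, and holds a repeated stretch with 2 composite elements that run the same way. All of these peaks were high in both replicates.

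The other strong peaks ranged from an exact T-MARE to a MAF core alone. Pknox2, a homeobox transcription factor gene, had 193.5 in replicate 1 and 201.1 in replicate 2 with a palindrome at 2 mismatches from the T-MARE. In Myo16, which encodes an unconventional myosin, the values were 173.3 and 192.1 and the best element was a MAF core, with a T-MARE match at 4 mismatches. Pvt1, a long non-coding RNA gene next to Myc, had 178.5 and 187.5 with an ARE core, and Tenm2, which encodes the adhesion protein teneurin-2, had 212.3 and 139.7 with a composite element. The remaining peaks of this group were in Gm13849 (371.9 in the optimal list), Gm28729 (352.6) and AC116597.1 (325.8), and the last of these holds an exact T-MARE. Of the 12 strongest peaks that both replicates' lists held, 8 had a composite element, 10 an ARE core and 5 an exact T-MARE.

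MAF sites were present at most deep intronic summits and rare in the sequence next to them. The MAF core was at 1815 of 2614 summits (69.4%), against 385 of 5228 windows (7.36%) centred 1000 bp to either side of the same summits. This was an odds ratio of 28.6 (25.02 to 32.64). The flanks were not screened for repeats as the summit bases were, and the part of this in the comparisons was not tested. The ARE core was at 1617 summits (61.9%) against 362 flanks (6.92%), an odds ratio of 21.8. The T-MARE was at 1098 summits (42.0%) against 23 flanks (0.440%), an odds ratio of 163.9. The composite element was at 748 summits (28.6%, interval 26.9 to 30.4) against 5 flanks (0.0956%), an odds ratio of 418.7 (173.5 to 1011). Fisher's exact test, two-sided, gave a p at the floor of 1e-300 for each of these. In the replicates' own lists, which came from another processing run, the composite element was at 38.3% of deep intronic summits for replicate 1 and 35.5% for replicate 2 (36.9% ± 2.02, SD, n = 2). Their flanks held it at 0.123% and 0.0706%, so the gap was far wider than the spread between replicates. Intervals are 95% Wilson intervals for shares and cover counting error only. Peaks are not independent replicates, and p-values over them describe these lists.

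**Figure D1:**
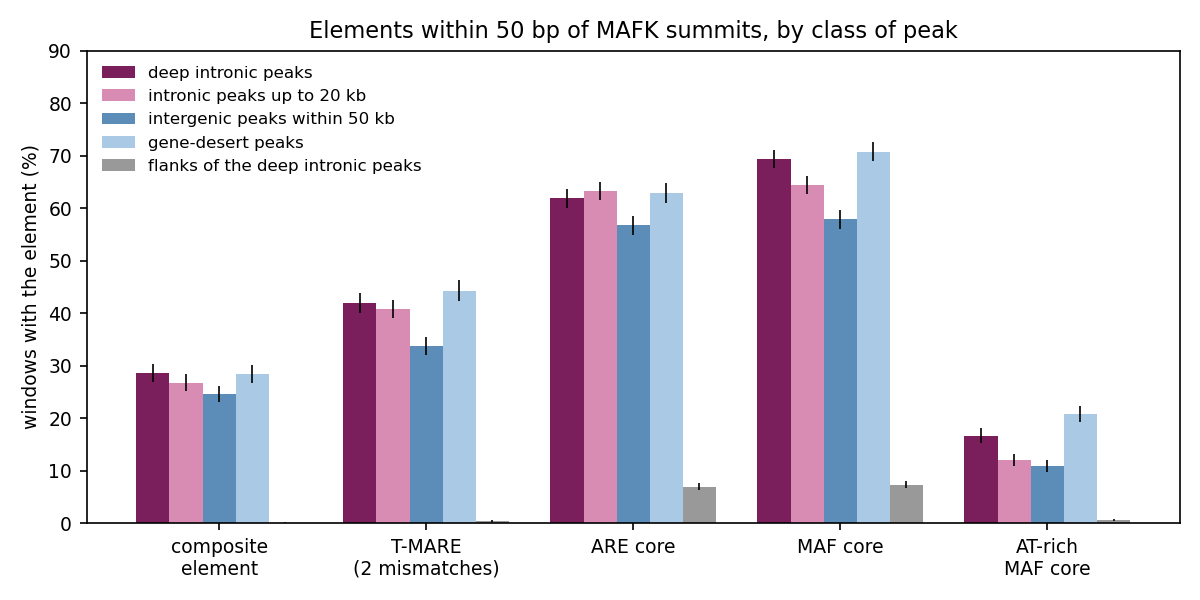
Share of windows of 50 bp to either side (%, vertical axis) with each of 5 elements at deep intronic summits, at 3 other classes of summits and in the flanks of the deep intronic peaks, with 95% Wilson intervals as bars. The flanks stay under 8% for every element, and the AT-rich MAF core is at 16.6% of deep intronic summits, 12.1% of near intronic, 10.9% of intergenic and 20.7% of gene-desert ones.

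The AP-1 element, which is part of every composite element, was at 961 deep intronic summits (36.8%) against 115 flanks (2.20%), an odds ratio of 25.8 with p at the same floor. Apart from the AT-rich form of the MAF core, which is set against the other classes further on, each remaining family was at under 6% of summits. The C-MARE palindrome, a MAF site with a longer spacer, was at 58 summits against 1 flank. CTCF, the insulator protein, had its core at 51 summits (1.95%) against 14 flanks (0.268%), an odds ratio of 7.41. The TEAD element, bound by the effectors of Hippo signalling, was at 122 summits (4.67%) against 134 flanks (2.56%), an odds ratio of 1.86. The SOX-OCT element of the pluripotency factors was at 18 summits against 8 flanks (odds ratio 4.52, exact test, adjusted p = 3.06e-04), and the CREB element at 6 against 2 (odds ratio 6.01, exact test, adjusted p = 0.0250). SOX-OCT kept its call under 5 of 10 alternatives and CREB under 3 of 10, with adjusted p-values of the exact test up to 0.770 and 0.330. TEAD kept its call under 9 of 10, and did not pass among peaks in both replicates' lists (odds ratio 1.55, exact test, adjusted p = 0.0582). The ESRRB element, the GC box and the shuffled control GTTCAG did not pass. The control was at 5.43% of summits and 4.69% of flanks (odds ratio 1.17, 0.945 to 1.44, exact test, adjusted p = 0.176). With masked summits kept, the control passed (1.23, exact test, adjusted p = 0.0474). In all, 11 of 14 families passed.

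The composite element lay mostly close to the summit. Its centre was at a median of 10.5 bp from the summit. Of the 748 peaks, 668 (89.3%) had it within 25 bp and 372 (49.7%) within 10 bp. These values are bounded by the search window of 50 bp. In a search to 300 bp, the 10 bp on either side of the summit held 214 and 206 sites. The stretches from 40 to 50 bp held 8 and 15. The form TGACTCAGCA was at 511 summits and TGAGTCAGCA at 327, with summits that hold both counted in each. Most of the 748 peaks held a single separate site (717), 27 held 2 and 4 held 3. Signal was higher where there were more sites. The median signal value was 221.1 over the 4 peaks with 3 sites, 78.5 with 2, 40.1 with 1 and 25.6 over the 1866 peaks with none. All 4 peaks with 3 sites were in both replicates' lists, against 74.1% with 2, 53.3% with 1 and 29.05% with none.

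How closely the best site matched the T-MARE went with signal and with replicate support. The 89 peaks with an exact T-MARE had a median signal value of 88.1 (quartiles 51.9 and 169.3), and 87.6% of them were in the thresholded lists of both replicates. With 1 mismatch (401 peaks) the median was 43.4 and the shared portion 55.9%, and with 2 mismatches (608 peaks) they were 30.7 and 41.4%. With 3 mismatches (636 peaks) they were 28.1 and 33.2%, with 4 (443 peaks) 23.2 and 21.2%, and with 5 or more (437 peaks) 21.2 and 20.4%. The Wilson intervals of the shared portion did not overlap between 0, 1 and 2 mismatches, and they did between 4 and 5 or more. Shared peaks are mostly strong ones, so the pair of readouts is not independent.

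**Figure D2:**
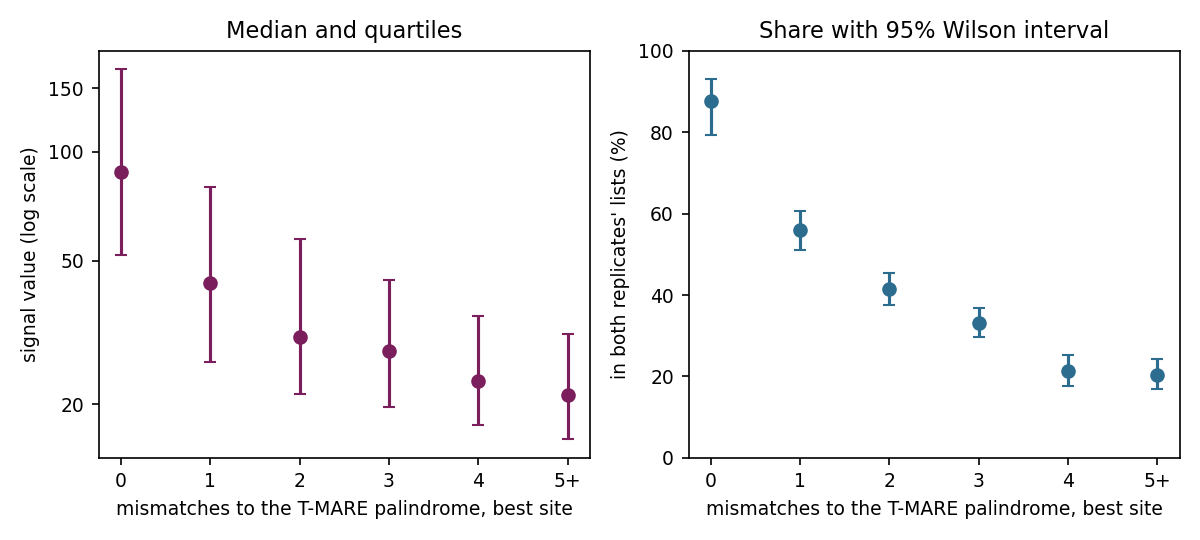
Deep intronic peaks by the number of mismatches between the best site within 50 bp and the T-MARE palindrome (horizontal axis). The left panel gives the median signal value with its quartiles on a log scale, and the right panel the share of peaks (%) in both replicates' thresholded lists with 95% Wilson intervals. The median is 88.1 at 0 mismatches and 21.2 at 5 or more.

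Signal ordered the elements in the same way across the whole range of deep intronic peaks. The composite element was at 10.3% of the weakest 10% and at 55.7% of the strongest 10%, and the portion without any of the 4 MAF elements was 33.2% in the weakest 10% and 2.29% in the strongest. Between the strongest and the weakest 25%, 305 of 654 peaks (46.6%) against 98 of 654 (15.0%) held the composite element. The odds ratio was 4.96 (3.81 to 6.46, Fisher's exact p = 3.57e-36), and among the strongest 50% of regions it was 2.36 and still passed. Peaks with an ARE core but no composite element (869) had a median signal value of 28.5. Those with a T-MARE but neither of these (130) had 29.96, those with only a MAF core (483) had 25.8, and the 384 with none had 20.2.

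**Figure D3:**
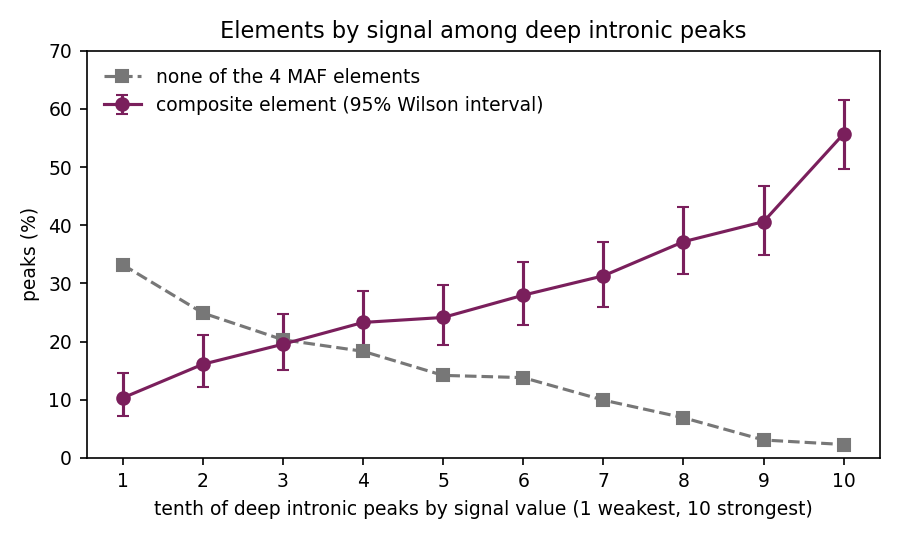
Share of deep intronic peaks (%, vertical axis) with the composite element (filled circles, 95% Wilson intervals) and with none of the 4 MAF elements (grey squares) in 10 groups of equal size by signal value, weakest on the left. The composite share is 10.3% in the first group and 55.7% in the last, while peaks without an element are 33.2% of the first and 2.29% of the last.

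The 2 replicates ranked deep intronic peaks alike, with wide scatter among weak ones. A region of the relaxed lists was found at 2569 of the 2614 peaks in both replicates. Over these, the Spearman rank correlation was 0.693 and Pearson's r of log2 signal was 0.756, given as a description, since the peaks share libraries and depth. The peaks also come from a list that passed the authors' reproducibility filter, so some of this agreement is built into the selection. The median signal value was 14.3 in replicate 1 and 14.7 in replicate 2 (14.5 ± 0.295, SD, n = 2). The log2 ratio of replicate 1 to replicate 2 had a median of -0.02 and ran from -1.35 to 1.27 between the 5th and the 95th percentile. The thresholded lists of both replicates held 948 peaks (36.3%), that of replicate 1 alone 246, that of replicate 2 alone 402 and neither 1018. A region of the authors' conservative list overlapped 2172 of the 2614 peaks (83.1%). Every peak of the strongest 10% was in both lists, against 1.53% of the weakest 10%.

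**Figure D4:**
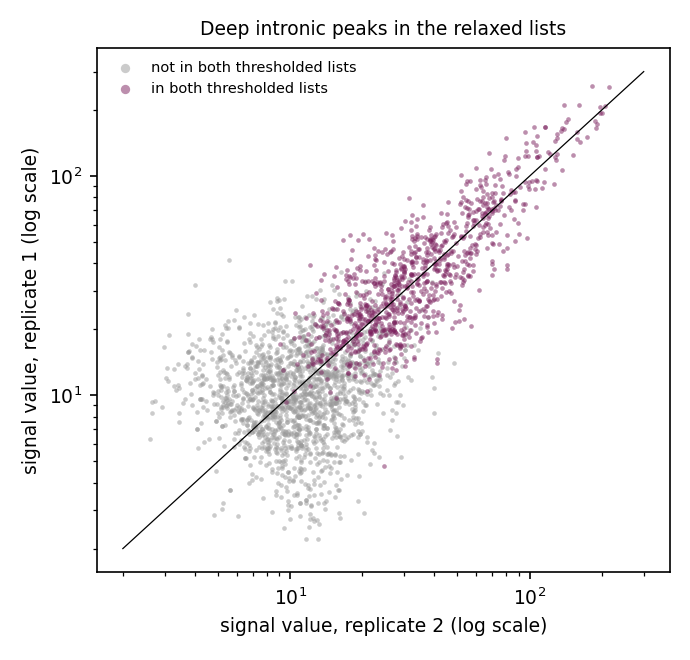
Signal value of each deep intronic peak in the relaxed list of replicate 1 (vertical axis) and of replicate 2 (horizontal axis), both on log scales, for the 2569 peaks found in both, with the line of equal values. Peaks in both thresholded lists (dark) follow the line, and the others (grey) form a broad cloud at low signal.

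Set beside other distal peaks, deep intronic peaks differed most often in their elements from intergenic peaks near genes. The comparison classes were 3183 intronic peaks from 1 to 20 kb of a protein-coding TSS, 2918 intergenic peaks up to 50 kb from one and 2548 gene-desert peaks beyond 50 kb, all with unmasked summits. The composite element was at 28.6% of deep intronic summits against 26.8% at near intronic summits, with an odds ratio of 1.10 (0.977 to 1.23, exact test, adjusted p = 0.330) and 28.4% in gene deserts (odds ratio 1.01, 0.895 to 1.14, adjusted p = 0.945). Against intergenic peaks near genes it was higher (28.6% against 24.6%, odds ratio 1.23, exact test, adjusted p = 0.00329). So were the T-MARE (42.0% against 33.8%, odds ratio 1.42), the ARE core (61.9% against 56.8%, odds ratio 1.23) and the MAF core (69.4% against 57.9%, odds ratio 1.65). The CTCF core was lower, at 1.95% of deep intronic summits against 3.50% of intergenic ones (odds ratio 0.55, exact test, adjusted p = 0.00275), and kept its call under 4 of 9 alternatives, with adjusted p-values up to 0.808. Of 14 families tested against each class, 3 passed against near intronic, 6 against intergenic and 1 against gene-desert peaks.

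The AT-rich form of the MAF core has 4 letters A or T before TGCTGA. Its share in deep intronic peaks lay between that of both classes near genes and that of gene deserts. An AT-rich stretch beside the core is known to favour binding by MAF proteins. This form was at 435 deep intronic summits (16.6%) and 29 of their flanks (0.555%). It was higher than in near intronic peaks (12.1%, odds ratio 1.46, exact test, adjusted p = 8.43e-06) and intergenic peaks (10.9%, odds ratio 1.64, adjusted p = 6.64e-09), and lower than in gene-desert peaks (20.7%, odds ratio 0.76, adjusted p = 0.00105). The difference from gene deserts did not pass for deep intronic peaks beyond 50 kb (odds ratio 0.88, exact test, adjusted p = 0.398) or in the list of replicate 2 (0.79, adjusted p = 0.0871). The AT content of the flanks was also higher than in both classes near genes and lower than in gene deserts. It was 57.05% for deep intronic peaks, against 54.8% for near intronic, 55.0% for intergenic and 58.5% for gene-desert peaks, and its part in the result was not tested. The flanks themselves held the AT-rich core at nearly one level, 0.555% for deep intronic against 0.597%, 0.514% and 0.589% for the other classes in the same order. The MAF core without regard to its neighbours was also higher than in near intronic peaks (69.4% against 64.4%, odds ratio 1.26, exact test, adjusted p = 4.63e-04). It did not pass among peaks in both replicates' lists (1.29, exact test, adjusted p = 0.0810) or in the list of replicate 1 (1.26, adjusted p = 0.0568). The C-MARE was at 2.22% of deep intronic against 1.29% of near intronic summits (odds ratio 1.74, exact test, adjusted p = 0.0329), a call kept under 6 of 9 alternatives.

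Among deep intronic peaks, the AT-rich core was more frequent far from protein-coding promoters, and the composite element showed no such order. The nearest protein-coding TSS was between 20009 and 1399875 bp away, with a median of 53648 bp, and 735 peaks were beyond 100 kb. The farthest, in the non-coding gene AC127588.1, had a signal value of 20.5 and a composite element. The composite element was at 28.9% of peaks from 20 to 30 kb, 28.0% from 30 to 50 kb, 30.8% from 50 to 100 kb, 27.8% from 100 to 200 kb and 26.1% beyond 200 kb. Beyond 100 kb against 20 to 50 kb, the odds ratio was 0.94 (0.763 to 1.15, Fisher's exact p = 0.533). Over the same bins the AT-rich core was at 12.3%, 16.2%, 14.8%, 18.98% and 26.4%, given as a description. The AT content of the flanks was 55.8% in the nearest bin and 60.6% in the farthest. Of peaks with a MAF core, 18.4% had the AT-rich form in the nearest bin and 35.7% in the farthest. Median signal showed no such order, at 28.2, 26.8, 29.1, 28.6 and 29.4. The peak just inside the 20 kb limit was in an intron of Pde4d, a cAMP phosphodiesterase gene, at 20009 bp with a signal value of 17.1. The intronic peak just outside it was in Map2k6, a kinase gene of the p38 pathway, at 19991 bp with 13.9. Neither held a MAF element.

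The signal of deep intronic peaks was close to that of other distal peaks. Their median signal value was 28.4, against 28.96 in near intronic, 28.8 in intergenic and 27.3 in gene-desert peaks. A signal value in the strongest 25% of the whole list (at or above 48.4) was found in 25.9% of deep intronic peaks against 26.04% of near intronic peaks, an odds ratio of 0.99 (0.884 to 1.12, exact test, adjusted p = 0.928). The share was 25.9% of deep intronic against 23.2% of gene-desert peaks (odds ratio 1.16, exact test, adjusted p = 0.0650). Both replicates' lists held 36.3% of deep intronic and 36.3% of near intronic peaks, an odds ratio of 1.00 (0.896 to 1.11). They held 33.0% of gene-desert peaks (odds ratio 1.15, exact test, adjusted p = 0.0457), and this last call was kept under 2 of 5 alternatives. It was lost when sharing needed 50% of the region (exact test, adjusted p = 0.0544) or the summit (0.0532), and for deep intronic peaks beyond 50 kb (0.0553).

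Peaks were thinner on the ground deep in introns than nearer to protein-coding promoters. There were 6.79 deep intronic peaks per Mb of the 384.8 Mb of unmasked sequence that met the rule, against 9.93 per Mb for near intronic sequence (ratio 0.68, 0.649 to 0.721), 10.8 per Mb for intergenic sequence near genes (ratio 0.63) and 4.97 per Mb for gene deserts (ratio 1.37). Each difference passed an exact conditional binomial test, with adjusted p-values of 4.91e-47, 1.26e-65 and 4.73e-29. X held 37 deep intronic peaks, 2.21 per Mb, against 2577 and 7.001 per Mb on the autosomes (ratio 0.32, 0.222 to 0.437, exact conditional binomial p = 3.34e-17). No autosome was near X, with densities from 5.72 to 9.66 per Mb. Near intronic peaks had a ratio of 0.27 between X and the autosomes. The line is labelled male, and the part of X copy number in the result was not tested. The median signal of the peaks on X was 25.8, against 28.5 on the autosomes.

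Deep intronic peaks were split between protein-coding and other genes much as the sequence was. A protein-coding gene held 2089 of them (79.9%), and eligible sequence summed over protein-coding genes, with overlaps counted for each gene, came to 80.4% of all eligible sequence. The remaining 525 lay only in other genes, of which 503 were in long non-coding RNA genes. Of 5427 protein-coding genes with any sequence that met the rule, 1260 (23.2%) held at least 1 peak. A single peak was found in 789 of these genes, 276 had 2, 195 had 3 or more and 48 had 5 or more. Hosting followed length. It was 4.08% of genes with up to 10 kb of eligible sequence, 14.9% from 10 to 30 kb, 33.6% from 30 to 100 kb, 62.7% from 100 to 300 kb and 89.7% beyond. Peaks per Mb ran the other way over the same bins, at 10.3, 9.32, 8.51, 6.33 and 5.19.

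**Figure D5:**
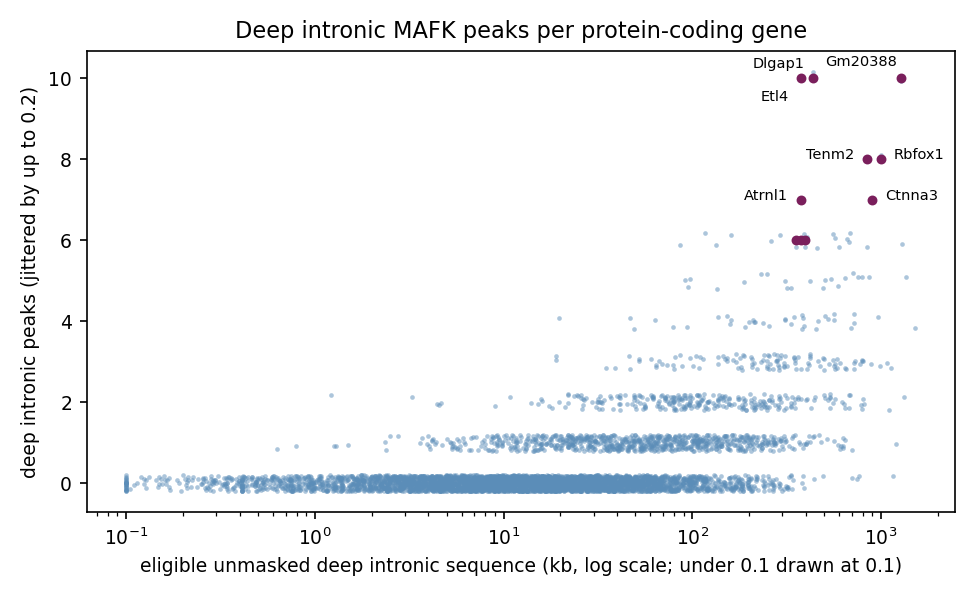
Deep intronic peaks per protein-coding gene (vertical axis, jittered) against the gene's eligible unmasked deep intronic sequence (kb, log scale), for 5427 genes. The 10 genes with the most peaks are dark, and 7 are named. Dlgap1 and Etl4 reach 10 peaks with 435.7 and 377.2 kb, while many genes of that size have 0 to 3.

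The genes with the most deep intronic peaks were long and of varied function. Dlgap1, a scaffold of the postsynaptic density, and Etl4, known for its role in the notochord and spine, held 10 each, at 23.0 and 26.5 per Mb of eligible sequence. Gm20388, a gene model of over 4 Mb, also held 10, at 7.84 per Mb. The adhesion gene Tenm2 and the splicing regulator Rbfox1 held 8 each, at 9.53 and 8.02 per Mb. Ctnna3 (an alpha-catenin) and Atrnl1 (an attractin relative) held 7. Spock1 (a proteoglycan), Lpp (a focal adhesion protein) and Magi1 (a junction scaffold) held 6. Over these 10 genes, 19 of 78 peaks (24.4%) held a composite element, against 28.6% of all deep intronic peaks. In Etl4 and Magi1 no peak had one, in Dlgap1 and Gm20388 1 of 10 and in Ctnna3 2 of 7. In Tenm2, Rbfox1, Atrnl1, Spock1 and Lpp 3 peaks each had one. In Lpp 5 of 6 peaks were in both replicates' lists, while in Dlgap1 2 of 10 were.

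Gene groups were described by their counts beside the 23.2% of all 5427 genes, whose median eligible sequence was 18.04 kb. The group of synapse and neuronal adhesion genes had 39 hosts of 40 and 122 peaks, but its genes were long, with a median of 574.4 kb, and its density was 4.79 peaks per Mb. Its strongest peaks were in Tenm2 (352.2), Ntm (224.2), Nlgn1 (201.9) and Magi1 (171.4), which encode adhesion proteins and a scaffold. Genes of fragile sites and other very long genes had 27 hosts of 30 at 4.09 per Mb, led by Ctnna3 (166.9) and Sgcz (149.9), a sarcoglycan gene. Ion channels and glutamate receptors had 27 hosts of 34 at 5.56 per Mb, led by the potassium channel Kcnma1 (278.3) and the ryanodine receptors Ryr3 (236.7) and Ryr2 (197.3). Axon guidance genes had 19 hosts of 23 at 6.82 per Mb, led by Ntng1 (169.0) and Robo2 (90.2). In all of these groups the density was near or under 6.79 per Mb, the value over all eligible sequence.

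In the other gene groups a smaller share of the genes with eligible sequence were hosts. Chromatin and transcription regulators had 32 hosts of 50 at 7.84 per Mb, with Aff3 followed by Arid1b (153.2), a subunit of the BAF remodeller. Wnt, TGF-beta, FGF and Hippo signalling genes had 16 hosts of 37 at 6.26 per Mb, led by the kinase Mapk10 (180.5). Antioxidant and NRF2-type genes, the classic targets of small MAF and CNC pairs, had 3 hosts of the 8 with eligible sequence. Their 6 peaks lay in 0.479 Mb, or 12.5 per Mb, and their median eligible sequence was 16.4 kb. Of the 6 peaks, 3 were in Slc7a11, the gene of the cystine transporter of glutathione synthesis. The strongest of the 3 had a signal value of 125.8, with 74.6 in replicate 1 and 51.3 in replicate 2, and a composite element. The 1 peak in Abcc4, a multidrug transporter gene, and the stronger of 2 in Nfe2l2, the gene of NRF2, were weak, at 18.99 and 17.1. Of 6 pluripotency genes with eligible sequence 3 were hosts, with 5 peaks in 0.424 Mb, or 11.8 per Mb, and a median of 56.9 kb. Over all protein-coding genes, density was 9.32 per Mb at 10 to 30 kb of eligible sequence and 8.51 per Mb at 30 to 100 kb. The densities of these 2 small groups rest on few peaks and were not tested. Esrrb, an orphan nuclear receptor of the naive state, had a deep intronic peak of 31.6 with 15.6 and 14.9 in the replicates and a composite element. No expression was measured, and a peak inside a gene is no evidence that MAFK regulates it.

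Within host genes, 470 of the 2015 peaks that could be placed in an intron of a protein-coding transcript were in the first intron (23.3%, interval 21.5 to 25.2). The first intron made up 20.9% of the eligible sequence that could be placed in the same way, 61.5 of 294.1 Mb (exact binomial p = 0.00855, two-sided). Placing needed exactly 1 protein-coding gene and an intron of its transcript of longest span. The share was 21.7% among peaks in both replicates' lists (exact binomial p = 0.617), 21.2% for replicate 1's own list and 22.5% for replicate 2's, and did not pass in any of these 3. The second intron held 349, the third 239 and later introns 957. The direction of the composite element relative to its host did not differ from 50% at the threshold. It read sense in 299 of 637 peaks (46.9%, 43.1 to 50.8, exact binomial p = 0.132). With masked summits kept it was 45.5% (exact binomial p = 0.00994), which then passed. The next summit of the optimal list was at a median of 41.7 kb, with 122 peaks within 1 kb of another and 669 over 100 kb away.

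Without elements chosen beforehand, MAF-type letters also led. Of 2080 sequences of 6 bp counted with their reverse complements, 152 (7.31%) were more frequent at deep intronic summits than in flanks and 127 (6.11%) less frequent, at an adjusted p under 0.01 by Fisher's exact test. The first by p was the MAF core itself, and the next were GCTGAC (41.5% against 4.19%) and GAGTCA (41.9% against 5.59%). These pieces of the composite element and the T-MARE overlap and are not separate findings. Several of the less frequent sequences were repeat-like, such as TATATA (1.64% against 4.15%) and ACACAC (6.73% against 10.7%). Only summit bases were screened for repeats, and the part of that in these counts was not tested. Among peaks in both replicates' lists 66 sequences were more frequent.

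The 384 deep intronic peaks (14.7%) with none of the 4 MAF elements were mostly weak, and 46 of them (12.0%) were in both replicates' lists. The portion was 14.7% against 16.7% in near intronic, 24.4% in intergenic and 13.8% in gene-desert peaks. The strongest is shown with the next on chromosomes where sequence is printed. Both were picked by signal value, so they are examples and not typical of the 384. Atxn1, at chr13:45623969-45624069, encodes ataxin-1, a chromatin-binding protein known from human spinocerebellar ataxia. It had 144.1 in replicate 1 and 128.3 in replicate 2. Gm35934, at chr8:18899310-18899410, is an antisense gene with 60.4 and 67.0. Capitals mark AP-1 elements and those near-matches, 1 base from the MAF core, that passed the 6 bp test given below. These are TGCTAA in Atxn1 and AGCTGA in Gm35934. Other near-matches, such as TGATGA in Atxn1, are not marked. The Gm35934 window also holds a CTCF core, CCACCTAGTGG as read on the printed strand, which is left in lower case. The third, in Commd10, had a signal value of 122.6, with 49.7 and 69.5 in the replicates. Both are the plus strand of mm10.
Atxn1: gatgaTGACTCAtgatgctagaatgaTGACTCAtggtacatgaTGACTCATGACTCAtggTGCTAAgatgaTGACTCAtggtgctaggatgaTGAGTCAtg
Gm35934: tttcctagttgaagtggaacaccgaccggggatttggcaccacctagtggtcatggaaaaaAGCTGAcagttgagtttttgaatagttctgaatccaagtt

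Some near-matches to the MAF core were more frequent at summits without an element than in their flanks. Of 2073 sequences of 6 bp, 15 (0.724%) were more frequent at these summits than in their flanks and 2 (0.0965%) less frequent. The first was TAAGCA, the reverse complement of TGCTTA, at 63 of 384 summits (16.4%) against 4.69% of flanks (Fisher's exact test, adjusted p = 1.22e-07). The next, AGCTGA, was at 66 summits (17.2%) against 5.99%. In all, 4 of the 15 differ from the MAF core at 1 base, and the other sequences at 1 base from it were not among the 15. The flanks were not screened for elements as the summits were, so the lack of TGCTGA at these summits follows from how they were chosen. An AP-1 element was at 38 of them (9.90%) against 2.60% of flanks. The CTCF core was at 17 (4.43%), against 34 of the other deep intronic peaks (1.52%). Over the 46 such summits in both replicates' lists, Fisher's exact test called 0 sequences more frequent at an adjusted p under 0.01.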

How the data were processed

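The authors ran, per the notes in text form that were deposited, 2 processing rounds on mm10. The relaxed, optimal and conservative lists come from the first, and each replicate's thresholded list from the second. No source used here names the aligner, the peak caller or the read filters. The signal value is a score deposited by the authors with no stated scale. The other deposited value used is the summit offset, in bp from the start of the region. Signal values of the replicates come from lists made separately, so comparisons between them are descriptions without a test.

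Sequences and the repeat mask (34.3% of bases) came from the RefSeq copy of GRCm38, whose mask may differ from other copies of mm10. Genes came from GENCODE vM21, and a protein-coding TSS was that of any transcript of a protein-coding gene. A region overlapped a list when it shared at least 1 bp. Tests were Fisher's exact and exact binomial tests (Python 3.11.15, SciPy 1.17.1), two-sided at 0.05, with Benjamini-Hochberg adjustment over the families and classes tested together. The 6 bp test was tested on simulated data. Lists other than the optimal one, other windows, elements, limits and transcripts were tried as alternatives, with 1 added after the data were seen.

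Members and gene lists were chosen with earlier results of these data known. Named peaks are the 12 strongest in both replicates' lists, the 3 strongest without a MAF element, the farthest and those beside the 20 kb limit. Named hosts are the 10 with the most peaks and up to 4 per list by signal. The result of 1 gene list is not reported here.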

Additional observations from a re-analysis of the deposited data

How the results depend on the processing

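No paired analysis was possible because the study has 1 group of 2 replicates. The composite share against flanks (odds ratio 62.0 to 1419.5) and against intergenic peaks, the 3 densities, the X ratio and the difference between the strongest and weakest 25% kept direction and call under each alternative run for them. Using one replicate's list at a time, the ratio to flanks was 504.1 to 777.2, to near intronic 1.07 to 1.16, to intergenic 1.33 to 1.39, to gene-desert peaks 0.936 to 1.10, the X ratio 0.204 to 0.311, the first-intron share 21.2% to 22.5%, and the 6 bp counts 64 to 106 and, for summits without an element, 0 to 2. Several odds ratios near 1 changed side without passing. The composite ratio to near intronic peaks was 0.992 with masked summits kept and 0.988 with 1 mismatch. That to gene deserts was 0.992 in the conservative list, 0.993 in the strongest 50%, 0.969 with 1 mismatch and 0.981 in 25 bp windows. The strong-quarter ratio to near intronic peaks was 1.01 in the conservative list and beyond 50 kb, and the shared ratio was 1.02 beyond 50 kb and 1.01 with 50% or summit overlap. With 1 mismatch the far-to-near ratio was 1.05. Orientation was 51.0% beyond 50 kb. With masked summits kept it was 45.5%, which stayed on the same side and passed (exact binomial p = 0.00994). The first-intron share was 21.7% in both lists, 22.2% in the strongest 50% and 19.6% beyond 50 kb. The 6 bp count was 66 in both lists and 87 in the strongest 50% and beyond 50 kb, and without an element it was 9 in the conservative list, 0 in both lists and beyond 50 kb, and 1 in the strongest 50%. Fewer regions enter these lists. Single elements also changed side. The shuffled control was 0.927 of flanks in both lists, the GC box 0.857 in 25 bp windows, and the T-MARE 0.997 of near intronic peaks with masked summits kept. The ARE core was 0.919 to 1.09 of near intronic peaks over the replicates' lists. Against gene deserts the MAF core was 1.03 beyond 50 kb, AP-1 was 1.02 with TSSs of protein-coding transcripts only, and CTCF was 0.791 in both lists, 0.829 in the list of replicate 2, 0.758 in the strongest 50% and 0.983 beyond 50 kb. The cause of these changes was not tested. Depth is unknown, so weak peaks missing from a replicate's list cannot be called absent.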
